A study of Homo sapiens with 6 samples.

Results

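The mitosis and chromosome segregation genes are a group of 42 genes, chosen by symbol from the 29889 genes of the read count table, whose products build the spindle, attach and separate the chromosomes and divide the cell. They were measured in A549 cells, a human lung adenocarcinoma line, 48 h after transfection with 1 of 2 plasmids. The CELF6-OE libraries come from cells given CELF6, a gene for an RNA-binding protein that acts on splicing and mRNA decay, in the pIRES-hrGFP-1a plasmid, and the Control libraries from cells given the empty plasmid. Each group held 3 biological replicates of polyadenylated RNA, and no sorting or selection of transfected cells is described, so each library is the RNA of a whole transfected culture. The comparison asked how the mRNA level of these genes differed between CELF6-OE and Control.

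Mitosis starts when CDK1 joined to cyclin B phosphorylates its targets, with the PLK1 and Aurora kinases acting beside it. Kinetochores, built on centromeric chromatin, hold the chromosomes to spindle microtubules, and the spindle assembly checkpoint keeps CDC20 from starting the anaphase-promoting complex until every chromosome is attached. The mRNAs of most of these genes are low in resting and G1 cells and high in G2 and mitosis, a pattern set at their promoters by CCAAT boxes, by the cell cycle genes homology region, and by factors that include FOXM1 and the MuvB complexes. Dividing tumour lines express these genes.

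The transfected gene itself was listed at 270, 295 and 172 FPKM in the CELF6-OE libraries and at 0 in each Control library, as the labels say, with CELF6-OE replicate 3 carrying the least CELF6. Libraries held between 33748328 and 37920700 counted reads, of which 8.69% to 10.1% were from mitochondrial genes. Keratin genes KRT8, KRT18 and KRT7 stood at 1523 to 2609 FPKM, while the epithelial adhesion genes EPCAM (0.82 to 1.77 FPKM) and CDH1 (2.80 to 11.2 FPKM) were low. Of the 10 markers of the line 4 were lower in CELF6-OE by edgeR and 0 higher, namely KRT8 (log2 fold change -0.47), KRT18 (-0.36), KRT19 (-0.22) and CDH1 (-1.62), and their summed level was 8715 to 10039 FPKM in CELF6-OE and 10771 to 10978 FPKM in Control. The part of this difference in the results for the mitosis genes was not tested. The leukocyte gene PTPRC, the fibroblast gene DCN and the endothelial gene CDH5 did not pass 0.01 FPKM in any library, and the leukocyte list's CD14 was at 3.02 to 4.53 FPKM, while the endothelial gene PECAM1, lower in CELF6-OE, did not pass 0.06 FPKM. Of the same lists, the leukocyte gene LYZ reached 0.25 FPKM and the fibroblast gene PDGFRB 0.04 FPKM. The fibroblast gene COL1A1 was at 0.22 to 0.42 FPKM, and its log2 fold change of -0.45 was not called (edgeR adjusted p = 0.104).

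Every one of the 42 genes passed the filter on low counts, with mean counts from 180.5 (CENPE) to 10849 (CDC25B) per library. Of these, 19 were higher in CELF6-OE (45.2%) and 0 were lower, by edgeR's quasi-likelihood test with a Benjamini-Hochberg adjusted p under 0.05 over 15847 genes. Among all genes tested, 6.47% were higher and 11.5% were lower, and among the 9895 genes within the same range of mean level 7.94% were higher. At an unadjusted p under 0.05, 29 of the 42 were higher and 0 lower, against 14.8% of all genes higher. DESeq2 and limma-voom each called 21 higher and 0 lower, where 6.16% and 6.71% of all genes were higher. In bulk RNA, a larger share of cells in G2 or mitosis and more of these mRNAs per cell cannot be told apart.

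The differences were small and lay in 1 direction. The 19 genes called were between 1.14 and 1.44-fold higher, and 39 of the 42 had a log2 fold change above 0 (51.6% of all genes tested did), with NUSAP1, NDC80 and CENPE below it. The median log2 fold change of the group was 0.24, or 1.18-fold, against 0.011 over all genes tested. No gene of the group met the second rule used here, an unadjusted p under 0.01 with a change of at least 1.5-fold (edgeR), which 1.36% of all genes met upward and 5.91% downward. For 30 genes (71.4%) the lowest CELF6-OE library lay above the highest Control library, compared with 17.9% of all genes tested, and for 0 genes was the order turned around, which it was for 20% of all genes.

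**Figure D1:**
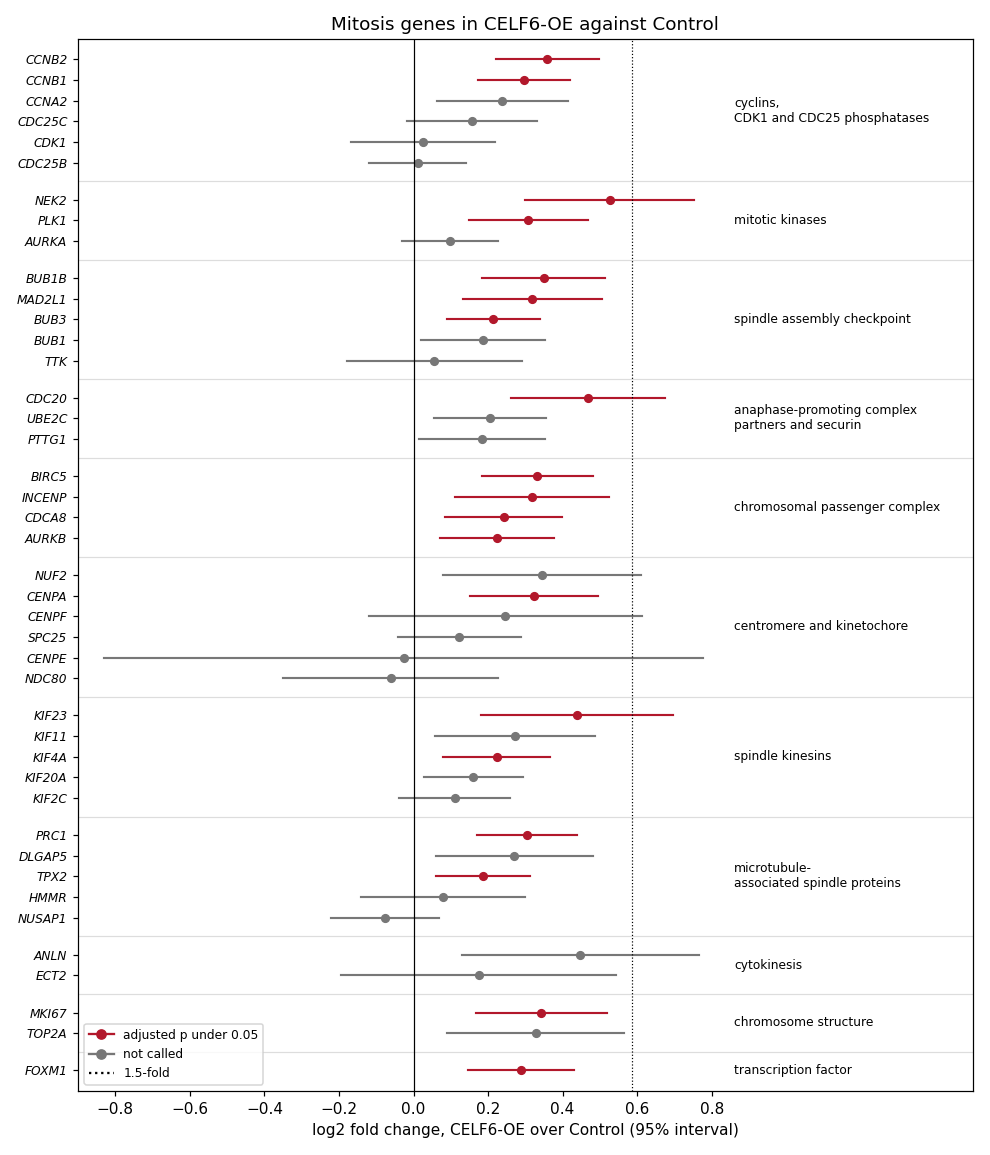
The log2 fold change of CELF6-OE over Control on the horizontal axis for each of the 42 genes, grouped by role, with its 95% interval from the edgeR fit of 3 against 3 libraries. Red points are the 19 genes with an adjusted p under 0.05, all to the right of 0, and every point lies to the left of the dotted line at 1.5-fold.

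Levels in single libraries are given in CPM, the read count relative to the TMM-scaled library size, in the order of replicates 1 to 3, and each adjusted p is from edgeR over all genes tested. Per library, the group's median log2 difference from the Control mean was 0.23, 0.27 and 0.22 in CELF6-OE and 0.033, 0.0086 and -0.053 in Control. The CELF6-OE medians thus stood together above the Control medians, and the SD within groups, pooled over both, was 0.037. The number of calls was less steady than the direction. Leaving out CELF6-OE replicate 1, 2 or 3 left 9, 7 or 12 genes called higher, when 2.33%, 1.74% or 3.85% of all genes were. Without Control replicate 2 it was 7 genes (1.78% of all genes), without Control replicate 1 it was 25 (11.9%) and without Control replicate 3 it was 21 (8%). With each library left out in turn, and under each of the other settings tried, 6 genes were called throughout: CCNB2, CCNB1, NEK2, CDC20, BIRC5 and BUB1B.

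**Figure D2:**
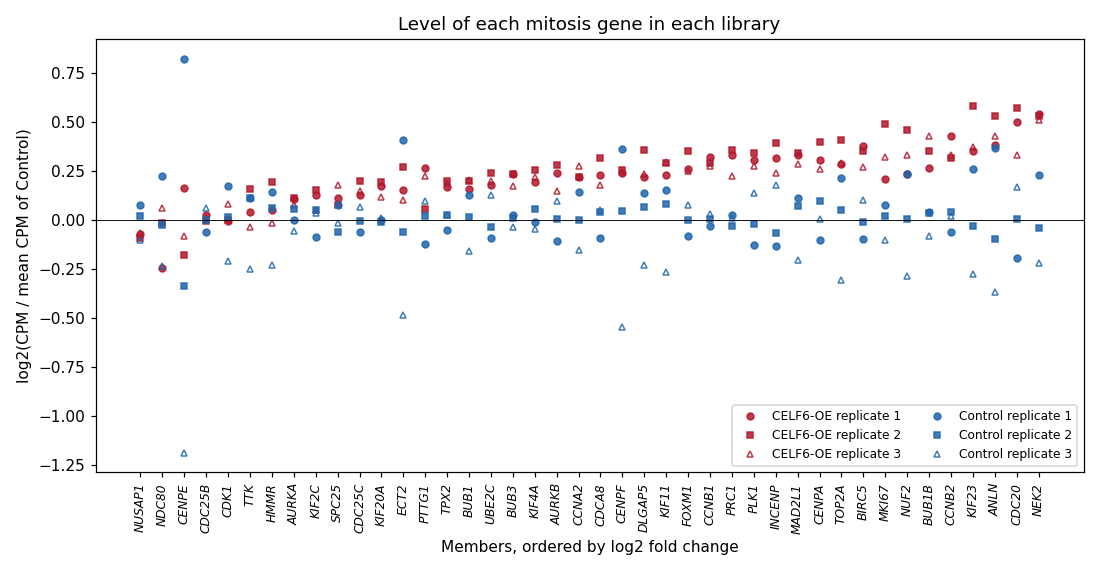
Level of each gene in each of the 6 libraries, as log2 of its CPM over the mean CPM of the 3 Control libraries, with the genes ordered by log2 fold change. Red symbols (CELF6-OE) lie above all blue symbols (Control) for 30 of the 42 genes, and the blue symbols spread widest at CENPE, CENPF and ECT2.

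The promoter letters of these genes are shown because many of the group hold them. The choice of genes did not use the letters. Both motifs are known from promoters of such genes, as said above, so the shares below are not independent of that choice. RefSeq promoter windows (GRCh38.p14, 250 bases before to 50 after the gene's start) were matched for 35 of the 42 genes, and none was matched for TPX2, FOXM1, BIRC5, UBE2C, BUB3, TTK or AURKA. The first window listed for each gene set the start used here, and other starts were not searched. For CENPA, NUF2 and NUSAP1, among others, that start lies inside the GENCODE span of the gene. The cell cycle genes homology region, or CHR, was searched as TTTGAA or TTCGAA and the CCAAT box as CCAAT, both on either strand. The 2 motifs were counted separately, and where their letters meet a base may count for both. In the lines below, each stretch of 30 bases is read 5′ to 3′ on the gene's strand, and capitals mark the CHR letters. The stretches are examples, and the number printed does not show how often the letters occur in genes called or not called. First come genes of the group that were called higher.
CCNB2: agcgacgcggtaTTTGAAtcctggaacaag (chr15:59105105-59105134, plus strand)
CDC20: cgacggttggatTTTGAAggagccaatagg (chr1:43358904-43358933, plus strand)
BUB1B: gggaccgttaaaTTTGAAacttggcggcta (chr15:40161034-40161063, plus strand)
PRC1: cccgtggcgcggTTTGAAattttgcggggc (chr15:90994538-90994567, minus strand)
PLK1: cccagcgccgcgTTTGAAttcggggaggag (chr16:23678848-23678877, plus strand)
CENPA: cggagcgagcgaTTTGAAcgcgagcggcgc (chr2:26786026-26786055, plus strand)
KIF23: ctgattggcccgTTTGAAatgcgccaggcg (chr15:69414282-69414311, plus strand)
MKI67: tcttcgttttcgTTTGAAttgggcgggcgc (chr10:128126435-128126464, minus strand)
Next are CHR stretches of genes whose level was not called different.
CDK1: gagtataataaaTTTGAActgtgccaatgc (chr10:60778158-60778187, plus strand)
NUSAP1: tggcgccagggaTTTGAAccgcgctgacga (chr15:41332882-41332911, plus strand)

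CHR letters were found in 25 of the 35 windows (71.4%), against 4539 of 27305 windows of all genes (16.6%). The windows of all genes, here and below, were not limited to the genes tested for their level. Besides the genes printed above, CDCA8, INCENP, KIF4A and MAD2L1, called higher, held CHR letters. So did ANLN, BUB1, CENPF, DLGAP5, ECT2, HMMR, KIF11, NDC80, NUF2, SPC25 and TOP2A, which were not called. Within 50 bases of the start CHR letters were found in 21 of the 35 (60.0%) and in 5.05% of all windows. CCAAT was found in 27 of the 35 (77.1%), against 35.7% of all, and both motifs in 21 (60.0%), against 6.58%. AURKB, CCNB1 and NEK2, all called higher, hold CCAAT and none of the CHR letters in this window. The same holds for CCNA2, KIF20A and PTTG1, which were not called. NUSAP1, with a log2 fold change of -0.077, holds both. A letter match is a description of the window and not a measured binding site.

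**Figure D3:**
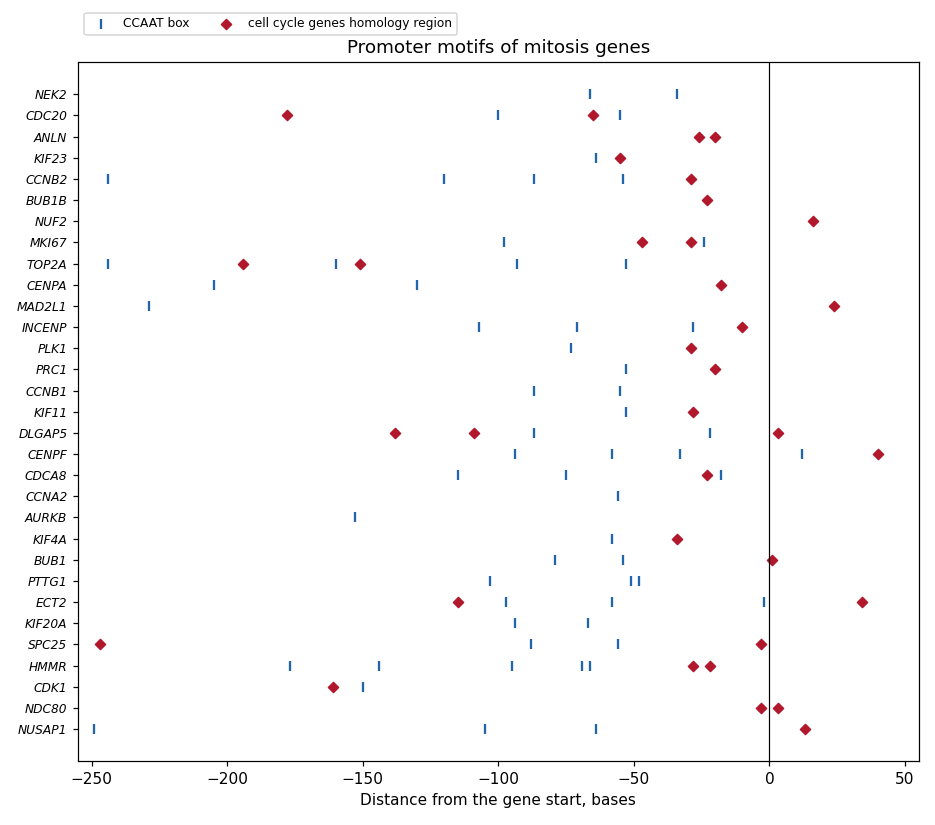
Position of CHR letters (red diamonds) and CCAAT letters (blue bars) in bases from the gene's start, for the 31 of 35 genes whose RefSeq window holds at least 1 of them, ordered from the highest log2 fold change at the top. Red diamonds crowd within 50 bases of the start, and blue bars lie mostly upstream of them.

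Among the cyclins, CDK1 and the CDC25 phosphatases, both B-type cyclins were higher and the kinase they activate was not called. CCNB2 (cyclin B2, chr15:59105126-59125045, plus strand, GRCh38) had 107, 98.6 and 99.7 CPM in CELF6-OE and 75.9, 81.6 and 80.2 CPM in Control. The groups did not overlap, with a 1.28-fold difference (log2 fold change 0.36, SE 0.063, adjusted p = 0.00275). CCNB1 (cyclin B1, chr5:69167135-69178245, plus strand), the main partner of CDK1 at mitotic entry, had 293, 288 and 284 CPM in CELF6-OE and 229.6, 235 and 239.7 CPM in Control. Its groups were also apart, and by 1.23-fold (log2 fold change 0.30, SE 0.057, adjusted p = 0.00477). CDK1 itself had 109.9, 110.4 and 117 CPM in CELF6-OE and 124, 111 and 95.5 CPM in Control, so that the CELF6-OE libraries fell inside the Control range. Its log2 fold change was 0.026 with a 95% interval of -0.17 to 0.22 (adjusted p = 0.866). CDC25B, a phosphatase that frees CDK1 from inhibition and the most abundant of the group by read count, was as near to 0, at 0.011 with an interval of -0.12 to 0.14 (adjusted p = 0.912). CDC25C, with the same function, was at 0.16 (adjusted p = 0.197). CCNA2, cyclin A2 of S and G2 phase, was at 0.24 (adjusted p = 0.0620), and neither passed the test although for both each CELF6-OE library exceeded each Control library.

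Of the 3 mitotic kinases, 2 were higher. NEK2 (centrosome separation, chr1:211658657-211675630, minus strand) had 29.6, 29.4 and 29.00 CPM in CELF6-OE and 23.8, 19.8 and 17.5 CPM in Control. It showed the largest fold change of the 42 genes in this fit, at 1.44-fold (log2 fold change 0.53, SE 0.10, adjusted p = 0.00564), with CELF6-OE libraries that differed by little and a Control replicate 1 well above the other Control libraries. PLK1, which acts from mitotic entry to the midbody, had 236, 242 and 231 CPM in CELF6-OE and 175, 188 and 210.0 CPM in Control. The groups did not overlap, and Control replicate 3 came nearest to the CELF6-OE libraries (log2 fold change 0.31, SE 0.073, adjusted p = 0.0147). AURKA, the spindle pole kinase, had 167, 167 and 164 CPM in CELF6-OE and 155, 161 and 149 CPM in Control. Here too the groups were apart, but the difference was small and not called (log2 fold change 0.10, SE 0.058, adjusted p = 0.270).

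Spindle assembly checkpoint genes gave 3 calls out of 5. BUB1B (BUBR1, part of the inhibitor of the anaphase-promoting complex, chr15:40161023-40221123, plus strand) had 33.4, 35.6 and 37.4 CPM in CELF6-OE and 28.7, 28.6 and 26.3 CPM in Control. MAD2L1 (MAD2, another part of that inhibitor) had 54.8, 55.2 and 53.1 CPM in CELF6-OE and 47.00, 45.8 and 37.9 CPM in Control. BUB3, which brings BUB1 and BUBR1 to kinetochores, had 179.6, 180.1 and 173 CPM in CELF6-OE and 155, 154 and 149 CPM in Control. No CELF6-OE library of these 3 genes was as low as a Control library. The log2 fold changes were 0.35 for BUB1B (SE 0.075, adjusted p = 0.00892), 0.32 for MAD2L1 (SE 0.084, adjusted p = 0.0247) and 0.21 for BUB3 (SE 0.057, adjusted p = 0.0257). In fits with a library left out, BUB1B was called in 6 of 6, and MAD2L1 and BUB3 in 2 of 6 each. The checkpoint kinase BUB1 was at 0.19 (adjusted p = 0.113) and the kinase TTK, or MPS1, at 0.056 with an interval of -0.18 to 0.29 (adjusted p = 0.752).

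CDC20, the activator of the anaphase-promoting complex that the checkpoint holds back (chr1:43358981-43363203, plus strand), had 319.7, 336 and 284 CPM in CELF6-OE and 198, 227 and 254 CPM in Control. The lowest CELF6-OE library, replicate 3, was still above Control replicate 3, the highest of its group (log2 fold change 0.47, SE 0.094, adjusted p = 0.00614). UBE2C, the ubiquitin-conjugating enzyme of that complex, was at 0.21 (adjusted p = 0.0605) and PTTG1, the securin that the complex destroys, at 0.18 (adjusted p = 0.122). PTTG1 had the highest Control level of the group per length, at 125 FPKM, and CENPE the lowest, at 0.563 FPKM.

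All 4 genes of the chromosomal passenger complex, which corrects wrong attachments and later marks the division plane, were higher. BIRC5 (survivin, chr17:78214186-78225636, plus strand) had 256, 251 and 237 CPM in CELF6-OE and 184, 196 and 211 CPM in Control. INCENP, the scaffold, had 27.5, 29.05 and 26.1 CPM in CELF6-OE and 20.1, 21.1 and 25.04 CPM in Control. CDCA8 (borealin) had 48.4, 51.4 and 46.8 CPM in CELF6-OE and 38.7, 42.4 and 42.8 CPM in Control. In each of them the groups were apart, with the smallest gap in INCENP between CELF6-OE replicate 3 and Control replicate 3. AURKB, the kinase of the complex, had 152, 156 and 142 CPM in CELF6-OE and 119, 129 and 137 CPM in Control, again without overlap. Log2 fold changes were 0.33 for BIRC5 (SE 0.068, adjusted p = 0.00679), 0.32 for INCENP (SE 0.094, adjusted p = 0.0383), 0.24 for CDCA8 (SE 0.071, adjusted p = 0.0382) and 0.22 for AURKB (SE 0.069, adjusted p = 0.0462). Except for BIRC5 these calls were near the threshold. Without Control replicate 1, in which all 4 genes were at their lowest Control level, 1 of the 4 stayed called.

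Of the centromere and kinetochore genes 1 of 6 was called. CENPA, the histone H3 variant of centromeric chromatin, had 33.5, 35.7 and 32.4 CPM in CELF6-OE and 25.2, 28.97 and 27.1 CPM in Control. Its groups did not overlap (log2 fold change 0.32, SE 0.078, adjusted p = 0.0167). The NDC80 complex, which binds microtubules, gave 0.34 for NUF2 (adjusted p = 0.0721), 0.12 for SPC25 (adjusted p = 0.283) and -0.062 for NDC80 (adjusted p = 0.780), none of them called. CENPF, a large protein of the outer kinetochore, had 45.4, 45.9 and 45.5 CPM in CELF6-OE and 49.2, 39.7 and 26.3 CPM in Control. CENPE, a kinetochore kinesin, had 5.66, 4.47 and 4.77 CPM in CELF6-OE and 8.94, 4.01 and 2.22 CPM in Control. For both the 3 CELF6-OE libraries lay within the Control range, and the intervals of the log2 fold change were wide, at -0.12 to 0.61 for CENPF and -0.83 to 0.78 for CENPE.

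Among the spindle kinesins 2 of 5 were called. KIF23, the kinesin of the central spindle, had 65.6, 76.7 and 66.5 CPM in CELF6-OE and 61.3, 50.2 and 42.4 CPM in Control. KIF4A, a chromosome-bound kinesin that also limits the length of the central spindle, had 46.05, 48.2 and 46.9 CPM in CELF6-OE and 40.01, 41.96 and 38.97 CPM in Control. Neither gene had overlapping groups, and the Control libraries of KIF23 spread much more than those of KIF4A. KIF23 was 1.36-fold higher (log2 fold change 0.44, SE 0.12, adjusted p = 0.0260) and KIF4A 1.17-fold (log2 fold change 0.22, SE 0.065, adjusted p = 0.0376). In fits with a library left out, KIF23 was called in 3 of 6 and KIF4A in 2 of 6. KIF11, which pushes the spindle poles apart, was at 0.27 (adjusted p = 0.0784), KIF20A, a cytokinesis kinesin, at 0.16 (adjusted p = 0.0905) and KIF2C, which takes microtubules apart at the centromere, at 0.11 (adjusted p = 0.285).

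PRC1, which bundles microtubules of the central spindle, had 151, 154 and 141 CPM in CELF6-OE and 123, 118 and 121 CPM in Control. TPX2, the activator of Aurora A on the spindle, had 205, 209 and 208 CPM in CELF6-OE and 176, 186 and 185 CPM in Control. Both were apart between groups, with a log2 fold change of 0.30 for PRC1 (SE 0.061, adjusted p = 0.00603) and 0.19 for TPX2 (SE 0.057, adjusted p = 0.0453), the smallest of the 19. In fits with a library left out, PRC1 was called in 5 of 6 and TPX2 in 1 of 6. TPX2 was called in 8 of the 12 other settings, and not by DESeq2 (adjusted p = 0.0543). The other spindle proteins were not called. DLGAP5, which stabilises kinetochore fibres, was at 0.27 (adjusted p = 0.0746), HMMR, a spindle assembly factor, at 0.079 (adjusted p = 0.620) and NUSAP1, which links microtubules to chromatin, at -0.077 (adjusted p = 0.444).

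The proliferation marker MKI67 (Ki-67, which coats mitotic chromosomes) had 126, 154 and 137 CPM in CELF6-OE and 115, 111 and 102 CPM in Control. Each CELF6-OE library exceeded each Control library, by the least margin in CELF6-OE replicate 1 (log2 fold change 0.34, SE 0.08, adjusted p = 0.0139). TOP2A, the enzyme that untangles sister chromatids, had 211, 229 and 212 CPM in CELF6-OE and 200.5, 179 and 140.1 CPM in Control. Its groups were apart, with a wide spread among Control libraries, and its log2 fold change of 0.33 was not called (SE 0.11, adjusted p = 0.0591). FOXM1, the transcription factor of the group, had 121, 129 and 119.6 CPM in CELF6-OE and 95.1, 101 and 106 CPM in Control. It was 1.22-fold higher without overlap (log2 fold change 0.29, SE 0.065, adjusted p = 0.0117). The cytokinesis genes gave no call by edgeR (1 of 2 at an unadjusted p under 0.05, and 1 each by DESeq2 and limma-voom). ANLN, anillin of the contractile ring, had 55.96, 61.8 and 57.7 CPM in CELF6-OE and 55.4, 40.02 and 33.3 CPM in Control, and its log2 fold change of 0.45 was just outside the threshold (adjusted p = 0.0544). ECT2, the activator of RhoA at the division plane, had 57.6, 62.5 and 55.6 CPM in CELF6-OE and 68.9, 49.7 and 37.1 CPM in Control, with the CELF6-OE libraries inside the Control range (log2 fold change 0.17, adjusted p = 0.504).

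Genes that were called and genes that were not differed in how far the Control libraries spread. The median coefficient of variation among the 3 Control libraries was 6.22% for the 19 genes called and 13% for the other 23, while among the CELF6-OE libraries it was 4.24% and 3.72%. This is a description, since a smaller spread is part of what makes a call. Control replicate 1 was the highest of its group for 22 genes and the lowest for 16, and Control replicate 3 was the lowest for 23. The ratio between these libraries moved with transcript length. Over the 42 genes the rank correlation of the log2 ratio of Control replicate 1 to Control replicate 3 with the length of the canonical transcript was 0.47, and over 15667 genes tested with a length it was 0.29. Its median ran from -0.11 in the shortest of 20 length bins (median 462 bases) to 0.22 in the longest (11035 bases). CENPE (8541 bases) had the largest log2 ratio of the group, 2.01, followed by CENPF (10290 bases) with 0.91 and ECT2 (4136 bases) with 0.89, which were named after their values were seen. The log2 fold change of CELF6-OE over Control followed length little across the 42 genes, with a rank correlation of 0.098. A fit that removed the length trend from each library, added after seeing the data, called 22 of the 42 higher, against 7.97% of all genes, with a median log2 fold change of 0.25. It lost BUB3 and INCENP and added UBE2C, PTTG1, TOP2A, ANLN and CCNA2. Why the libraries differ by length was not tested.

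**Figure D4:**
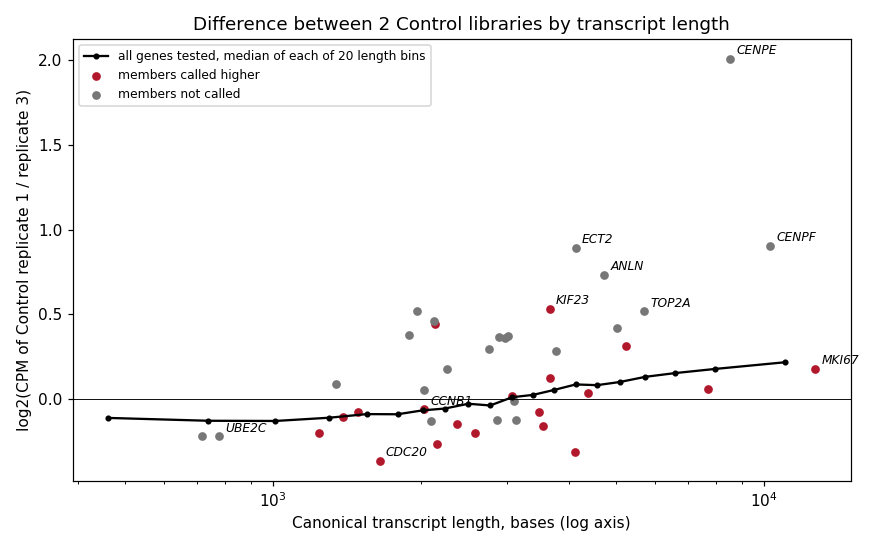
The log2 ratio of the CPM of Control replicate 1 to Control replicate 3 against the length of the canonical transcript in bases, on a log axis, for the 42 genes (points) and as the median of 20 length bins over all genes tested (line). The line rises from -0.11 to 0.22, and CENPE, CENPF, ECT2 and ANLN lie far above it.

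Annotated neighbours limit a few values. By GENCODE positions, exons of 13 of the 42 genes overlap exons of a gene on the opposite strand, and the strand setting of the counting is not given in the sources used here, so reads in those stretches may be credited to either gene. Among genes called higher, the largest such overlaps were 1892 bases of PRC1 with PRC1-AS1 and 782 bases of FOXM1 with ITFG2. PRC1-AS1 was at a mean count of 5.33 and ITFG2 at 385. On the same strand, PRC1 shares 3181 bases with the protein-coding gene ENSG00000284946 and NUSAP1 2938 with ENSG00000285920, for neither of which a count was used here. CENPA shares 138 bases with SLC35F6, at a mean count of 3746, and NUSAP1 195 with OIP5-AS1, at 1820. A near-identical copy of CDC20, CDC20P1, was listed with a mean count of 57.7 against 9670 for CDC20 itself.

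The other genes of mitosis, on 7 lists of 105 genes in all, are given beside the shares of all genes tested, of which 6.47% were higher, 11.5% lower and 51.6% above 0. Of the 105, 24 were higher (22.9%) and 1 was lower, 97 had a log2 fold change above 0, and their median was 0.19. Cell division cycle gene CDCA3, which helps degrade WEE1, had 74.8, 72.6 and 73.8 CPM in CELF6-OE and 47.9, 55.5 and 56.6 CPM in Control (log2 fold change 0.47, SE 0.074, adjusted p = 0.00150). WEE1, the kinase that holds CDK1 inactive, had 18.2, 16.6 and 17.1 CPM in CELF6-OE and 13.6, 11.4 and 10.7 CPM in Control (log2 fold change 0.54, SE 0.10, adjusted p = 0.00480). Both the inhibitor of mitotic entry and the factor that removes it were thus higher, with no overlap between groups. Other kinetochore genes gave 7 higher of 30 with a median of 0.16, and the smallest p was that of MIS18A, which helps load CENPA, at 0.40 (SE 0.081, adjusted p = 0.00669). Condensins gave 3 of 8 with a median of 0.23, the smallest p being that of NCAPD2, at 0.25 (SE 0.061, adjusted p = 0.0174). Other spindle and cytokinesis genes gave 4 of 18 with a median of 0.23, among them RACGAP1, the partner of KIF23, at 0.26 (SE 0.064, adjusted p = 0.0176). With a library left out, CDCA3, WEE1 and MIS18A were called in 6 of 6 fits, RACGAP1 in 3 and NCAPD2 in 2, and NCAPD2 was not called with the replicate block (adjusted p = 0.0504).

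Cohesin and separase had a median as high, 0.23, and none of 10 genes was called by edgeR or limma-voom. In that list 5 had an unadjusted p under 0.05 and DESeq2 called 1. Subunits of the anaphase-promoting complex and their cofactors were nearer to 0, with 4 higher of 16 and a median of 0.084, ANAPC1 having the smallest p, at 0.28 (SE 0.072, adjusted p = 0.0210). ANAPC1 was called in 2 of 6 fits with a library left out, and not with the replicate block (adjusted p = 0.0546). The list of 16 other mitotic entry genes and substrates, WEE1 and CDCA3 among them, gave 5 higher with a median of 0.23. In the list of other checkpoint and passenger genes the calls went both ways, with a median of 0.074 over 7 genes. TRIP13, which recycles MAD2, had 84.05, 84.2 and 79.8 CPM in CELF6-OE and 64.8, 66.1 and 69.00 CPM in Control (log2 fold change 0.31, SE 0.061, adjusted p = 0.00567). MAD1L1, the kinetochore anchor of MAD2, had 15.7, 17.5 and 15.3 CPM in CELF6-OE and 18.5, 20.1 and 21.2 CPM in Control and was lower (log2 fold change -0.30, SE 0.091, adjusted p = 0.0423). It was the 1 gene of mitosis lower among the 105, and it was not called in 5 of the 12 other settings or in 5 of the 6 fits with a library left out.

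**Figure D5:**
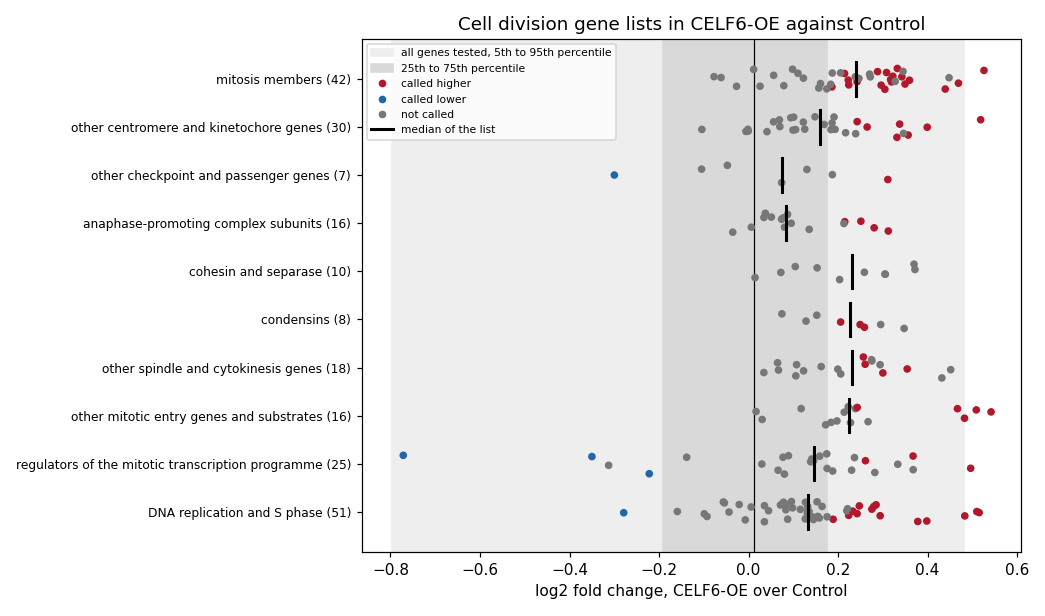
The log2 fold change of CELF6-OE over Control on the horizontal axis for every gene of the 42 and of the lists beside them, the number of genes in brackets, over grey bands for the spread of all genes tested. Black bars mark list medians, which run from 0.074 to 0.24, and blue points are genes called lower, of which CDKN1A is the farthest left.

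Of 25 regulators of the mitotic transcription programme, 3 were higher and 3 were lower, 12% each, beside 6.47% and 11.5% of all genes, and the median was 0.15. CDKN1A (p21), the inhibitor of cyclin-dependent kinases, had 134, 132 and 138 CPM in CELF6-OE and 209.5, 234 and 246 CPM in Control. Every CELF6-OE library lay far below every Control library (log2 fold change -0.77, SE 0.069, adjusted p = 3.98e-05), and this call held with each library left out. Also lower was E2F5, an E2F factor of the repressive kind, at -0.35 (SE 0.074, adjusted p = 0.00844). E2F7, another repressive E2F factor, was higher at 0.50 (SE 0.14, adjusted p = 0.0285). With a library left out, E2F5 was called in 4 of 6 fits and E2F7 in 1 of 6. The other higher genes, named after their values were seen, were RBL1 (p107) and TFDP1, a partner of E2F factors. Their calls were near the threshold, at 0.37 for RBL1 (SE 0.11, adjusted p = 0.0466) and 0.26 for TFDP1 (SE 0.083, adjusted p = 0.04997). Of the 25 regulators, DESeq2 called 3 higher, limma-voom 2 and the fit with the replicate block 1. What links these genes to the level of the 42 was not tested.

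Genes of DNA replication and S phase, the earlier wave of the cycle, gave 14 higher (27.5%) and 1 lower of 51, beside 6.47% and 11.5% of all genes, with a median of 0.13. UHRF1, which keeps DNA methylation through replication, had 65.8, 73.2 and 60.96 CPM in CELF6-OE and 49.5, 44.3 and 46.6 CPM in Control (log2 fold change 0.51, SE 0.08, adjusted p = 0.00144). Its groups did not overlap. The gene called lower, named after its value was seen, was PCNA, the sliding clamp of DNA polymerase, at -0.28. Library medians of the S phase list were 0.16, 0.14 and 0.10 in CELF6-OE, each below the 0.23, 0.27 and 0.22 of the 42 mitosis genes in the same library. The 105 other mitosis genes had medians of 0.17, 0.21 and 0.15 in these libraries, also below those of the 42. The differences between the lists were not tested.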

How the data were processed

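RNA of 6 A549 cultures was sequenced as paired ends from a stranded polyA kit. As the methods describe, the authors used FASTX-Toolkit for trimming and TopHat2 for alignment to GRCh38, and counted uniquely placed reads per gene. The deposited read counts are whole numbers with no normalization, and the deposited FPKM values were computed by the authors from the same reads and rounded to 0.01. The counting tool, strand setting and annotation release are not given in the sources used here.

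Counts were tested with edgeR 4.0.16 in R 4.3.3: TMM scaling, genes kept by filterByExpr (minimum count 10), quasi-likelihood fit, prior count 0.125, 3 CELF6-OE against 3 Control libraries with no covariate, Benjamini-Hochberg adjusted p under 0.05 over 15847 genes. SEs and 95% intervals come from that fit. The authors name edgeR with a 1.5-fold change and, in different places, a p under 0.01 or a false discovery rate under 0.05. The first was used here as a second rule. The script was tested on simulated data. DESeq2 1.42.0, limma 3.58.1 (voom on counts, or on log2(FPKM + 1) and log2(FPKM + 0.1) for genes with a mean FPKM of at least 0.1), RLE and upper quartile scaling, library size alone, no filter, a mean CPM of at least 1, removal of CELF6 counts, the replicate number as a block and each library left out were the alternatives. Transcript length offsets were added after seeing the data, in 20 bins of the GENCODE canonical transcript length.

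The genes and lists were chosen with earlier results of these data known, so list counts and medians are descriptions without a set test. Values by library are given for every member with an adjusted p under 0.05 (up to 20), for CDK1, CCNB1, MKI67, TOP2A, FOXM1, AURKA and PLK1, and for CDKN1A. From other lists at most 4 called genes with the smallest p were eligible, and some of these are not reported here. CENPE, CENPF, ANLN and ECT2 were added after their values were seen. Replicates are called biological by the methods, which do not say how cultures were separated.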

Additional observations from a re-analysis of the deposited data

How the results depend on the processing

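With 1 library left out at a time, between 7 and 25 of the 42 genes were higher and 0 lower, the median log2 fold change ran from 0.20 to 0.26, and from 0 to 3 genes met the second rule, the 3 without Control replicate 1. Under the other settings 15 to 24 were higher, with 4.36% to 8.13% of all genes higher, and 0 met the second rule. Of the 105 other mitosis genes 5 to 41 were higher and 0 to 1 lower with a library left out, and 0 lower, against 1, with library size alone, upper quartile scaling, the replicate block and both FPKM fits. S phase genes called higher ranged from 3 to 17 with a library left out. Over all genes, 281 to 1906 were higher and 1032 to 2370 lower in the same fits.

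Replicate numbers did not pair the samples: deviations of same-numbered libraries correlated at -0.011, -0.021 and -0.072, and no sample correlated best with its own number. The replicate block called 15 of the 42 genes higher (4.54% of all genes), against 19, and 8 S phase genes, against 14.

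Genes near 0 changed sign. With a library left out, log2 fold changes ran from -0.068 to 0.11 for CDK1, -0.027 to 0.042 for CDC25B, -0.054 to 0.12 for TTK, -0.16 to 0.058 for NDC80, -0.017 to 0.42 for ECT2, -0.022 to 0.15 for HMMR and -0.38 to 0.66 for CENPE. CENPE was at 0.20 with limma-voom, 0.13 with the replicate block and 0.026 and 0.16 with log2(FPKM + 1) and log2(FPKM + 0.1). It was called once, without Control replicate 1 (adjusted p = 0.0274, edgeR). The causes were not tested. With 3 libraries a group, a common dispersion of 8.62% (coefficient of variation) limits single-gene calls of this size.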
